A study of Mus musculus with 2 samples.

Results

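The Mir106b cluster on chromosome 5 and the Mir106a cluster on the X chromosome are groups of microRNA genes whose hairpins lie close together and are known to be cut from a shared primary transcript. They are paralogs of each other and of the Mir17hg cluster on chromosome 14. The 9 genes were chosen by symbol in the GENCODE mouse annotation, out of 1973 microRNA genes in the count table: Mir106b, Mir93 and Mir25 in the Mir106b cluster, and Mir106a, Mir18b, Mir20b, Mir19b-2, Mir92-2 and Mir363 in the Mir106a cluster. The selection rule is a list of symbols and sets no limit on a gene's level, but it was drawn up with earlier results of these data known.

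MicroRNA sequencing was carried out on midbrain of healthy mouse embryos of strain B6NCrl at embryonic day 12.5, in 2 libraries of RNA below 30 bases. Tissue of 120 embryos was pooled for replicate 1 and of 88 embryos for replicate 2, with both sexes in each pool. Both libraries belong to 1 group, and no treatment or mutant was studied. The clusters, their genes and the replicates are therefore what can be compared. The labels number the libraries as biological replicates. A p-value by Fisher's exact test between them sets their difference against counting noise and is no measure of its size.

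A microRNA guides the Argonaute protein to messenger RNAs that pair with its seed, bases 2 to 8 from its 5′ end, and lowers their translation and stability. MicroRNAs with the miR-17 seed are known to restrain the cell cycle inhibitor Cdkn1a and are abundant in dividing cells, and those with the miR-25 seed are known to restrain the cell cycle inhibitor Cdkn1c and the pro-apoptotic Bcl2l11. Mcm7, the host gene of the Mir106b cluster, encodes a subunit of the helicase that unwinds DNA for replication. In adult mouse neural stem and progenitor cells, the Mir106b cluster is known to promote proliferation.

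The mature sequences of the members fall into 4 seed groups, and the sequences are shown because the groups decide which genes can be set side by side. All 9 members were found in the RefSeq table on GRCm38.p6, from which the sequences are taken. Each is written 5′ to 3′ with the seed in capitals. The arm shown is the one with the family's seed, but the counts are per gene and do not tell the arms of a hairpin apart.

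The miR-17 seed was present in Mir106b and Mir93 of the Mir106b cluster and in Mir106a and Mir20b of the Mir106a cluster, with miR-17 and miR-20a of the Mir17hg cluster shown for comparison:
mmu-miR-106b-5p: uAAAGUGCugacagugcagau
mmu-miR-93-5p: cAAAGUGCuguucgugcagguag
mmu-miR-106a-5p: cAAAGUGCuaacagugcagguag
mmu-miR-20b-5p: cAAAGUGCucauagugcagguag
mmu-miR-17-5p: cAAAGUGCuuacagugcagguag
mmu-miR-20a-5p: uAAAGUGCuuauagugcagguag

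Compared without gaps and counted from 1 at the 5′ end, miR-106a-5p differed from miR-17-5p by the single substitution U10A. The other pairs differed more: miR-20b-5p from miR-20a-5p by U1C and U10C, and miR-106b-5p from miR-106a-5p by C1U, A10G and G20A over the 21 bases of the shorter sequence. None of these lay in the seed.

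The miR-25 and miR-92 seed was present in Mir25 of the Mir106b cluster and in Mir92-2 and Mir363 of the Mir106a cluster, with miR-92b from chromosome 3 for comparison:
mmu-miR-25-3p: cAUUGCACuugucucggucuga
mmu-miR-92a-3p: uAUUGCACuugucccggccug
mmu-miR-363-3p: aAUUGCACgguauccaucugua
mmu-miR-92b-3p: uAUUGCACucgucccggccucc

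Over 21 bases, miR-25-3p differed from miR-92a-3p by 3 substitutions (U1C, C14U and C18U), while miR-363-3p differed from it by 11. The remaining seeds occurred only in the Mir106a cluster among the 9 members, the miR-18 seed in Mir18b and the miR-19 seed in Mir19b-2, shown with miR-18a and miR-19a of the Mir17hg cluster:
mmu-miR-18b-5p: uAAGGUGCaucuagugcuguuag
mmu-miR-18a-5p: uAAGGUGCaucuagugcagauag
mmu-miR-19b-3p: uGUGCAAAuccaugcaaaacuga
mmu-miR-19a-3p: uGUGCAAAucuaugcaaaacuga

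For 2 members, Mir92-2 and Mir19b-2, the mature sequence also occurs whole in another annotated hairpin, Mir92-1 and Mir19b-1 of the Mir17hg cluster. The 4 hairpins are shown because they decide which reads could be assigned to 1 gene. The shared mature sequence is in capitals:
Mir92-2: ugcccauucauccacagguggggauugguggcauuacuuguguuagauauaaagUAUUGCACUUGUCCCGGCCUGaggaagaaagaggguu
Mir92-1: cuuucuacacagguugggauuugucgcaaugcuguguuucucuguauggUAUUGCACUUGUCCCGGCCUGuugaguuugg
Mir19b-2: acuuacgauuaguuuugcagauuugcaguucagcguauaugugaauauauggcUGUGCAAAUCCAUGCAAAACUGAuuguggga
Mir19b-1: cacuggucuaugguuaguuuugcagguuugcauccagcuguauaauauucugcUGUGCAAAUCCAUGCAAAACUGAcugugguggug

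Counted from the first base of the mature sequence, the Mir92-1 and Mir92-2 hairpins first differ just past its 3′ end, at U22A, and the Mir19b-1 and Mir19b-2 hairpins at C24U. The longest run of bases shared around the mature sequence was 22 for the Mir92 pair and 25 for the Mir19b pair. A read that lies inside such a run aligns to both genes. Reads that aligned to several places made up 33.4% of all reads in each library and were assigned to no gene, so the values given here for Mir92-2, Mir92-1, Mir19b-2 and Mir19b-1 leave them out. The share of those reads that came from these hairpins was not tested. For the other 7 members, each listed mature arm had at least 1 mismatch to every other gene's hairpin among the 1005 searched in the RefSeq table. The nearest was Mir106a with 1 mismatch to Mir17. Mir18b and Mir20b each had 2 to their nearest hairpin, Mir106b, Mir93 and Mir25 had 3, and Mir363 had 7.

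On mm10, the Mir106b cluster spans 498 bases of the minus strand inside Mcm7 (ENSMUSG00000029730.16, chromosome 5 from 138164583 to 138172422). Mir106b (ENSMUSG00000065514.1) lies from 138165737 to 138165818, Mir93 (ENSMUSG00000065527.1) from 138165523 to 138165610 and Mir25 (ENSMUSG00000065394.1) from 138165321 to 138165404. All 3 lie between exons 13 and 14 of the longest protein-coding Mcm7 transcript, in an intron of 748 bases, and Mir93 and Mir25 also lie within an exon of a short retained-intron transcript of Mcm7. The hairpins are separated by 126 and 118 bases.

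The Mir106a cluster spans 875 bases of the minus strand of the X chromosome. In the order of transcription it holds Mir106a (ENSMUSG00000065456.1, 52742503 to 52742567), Mir18b (ENSMUSG00000077111.2, 52742331 to 52742413), Mir20b (ENSMUSG00000076041.1, 52742113 to 52742192), Mir19b-2 (ENSMUSG00000065473.1, 52741983 to 52742066), Mir92-2 (ENSMUSG00000065613.1, 52741838 to 52741928) and Mir363 (ENSMUSG00000070106.1, 52741693 to 52741767). Mir106a overlaps the 3′ end of the last exon of the non-coding gene Kis2 by 5 bases. In the annotation the other 5 genes lie downstream of Kis2 in no gene on their strand.

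The libraries held 4629302 assigned own-strand counts in replicate 1 and 2805487 in replicate 2, which were 43.1% and 41.8% of their reads. All 9 members had at least 10 counts in both libraries, the limit set for a quantified gene, which 380 genes reached. The strand of each deposited column was read from its values, and in the column taken as the opposite strand every member had 0 reads. Levels are given as CPM, counts per 1000000 assigned own-strand counts, and a count of 3 corresponded to 0.648 CPM in replicate 1 and 1.07 CPM in replicate 2. The mature arms of the members are 21 to 24 bases long, so counts were not divided by length. Of 16 neural microRNA genes listed to check the tissue label, 15 were found by symbol and all 15 had counts in both libraries, summing to 12658 CPM in replicate 1 and 12816 CPM in replicate 2. Of these 15, 13 were quantified, and the highest means were Mir137 (3894 CPM), Mir153 (3399 CPM) and Mir219a-2 (3042 CPM). Erythroid, endothelial, mesenchymal and leukocyte genes were present too, and endothelial Mir126a exceeded the neural sum, at 23434 and 26243 CPM. The sums leave out reads that aligned to several places, and how many each gene lost was not tested.

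In reads assigned to a single gene, the Mir106b cluster was the more abundant of the pair in both libraries. Its 3 genes summed to 38597 CPM in replicate 1 and 31285 CPM in replicate 2, a mean of 34941 ± 5170 CPM (SD, n = 2). The 6 genes of the Mir106a cluster summed to 11445 CPM in replicate 1 and 8191 CPM in replicate 2, a mean of 9818 ± 2301 CPM (SD, n = 2). The ranges of the clusters did not overlap, and the Mir106b cluster had 3.37 times the counts of the Mir106a cluster in replicate 1 and 3.82 times in replicate 2. On the log2 scale this ratio averaged 1.84 ± 0.13 (SD, n = 2), so the difference between the clusters was many times the spread between the replicates. Reads shared by the Mir92 and Mir19b copies are missing from the Mir106a and Mir17hg sums but not from the Mir106b sum, and their number per gene is unknown. Reads of any origin that aligned to several places numbered 3589504 in replicate 1 and 2242911 in replicate 2, more than the counts of either cluster. The order of the 2 clusters with shared reads included is therefore not established. With 2 libraries an exact two-sided permutation test of 2 values against 2 cannot give a p below 0.333, and none was run. Such a test would also ignore that both clusters were measured in the same libraries. In bulk tissue, fewer cells that express a gene and less RNA per cell cannot be told apart.

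**Figure D1:**
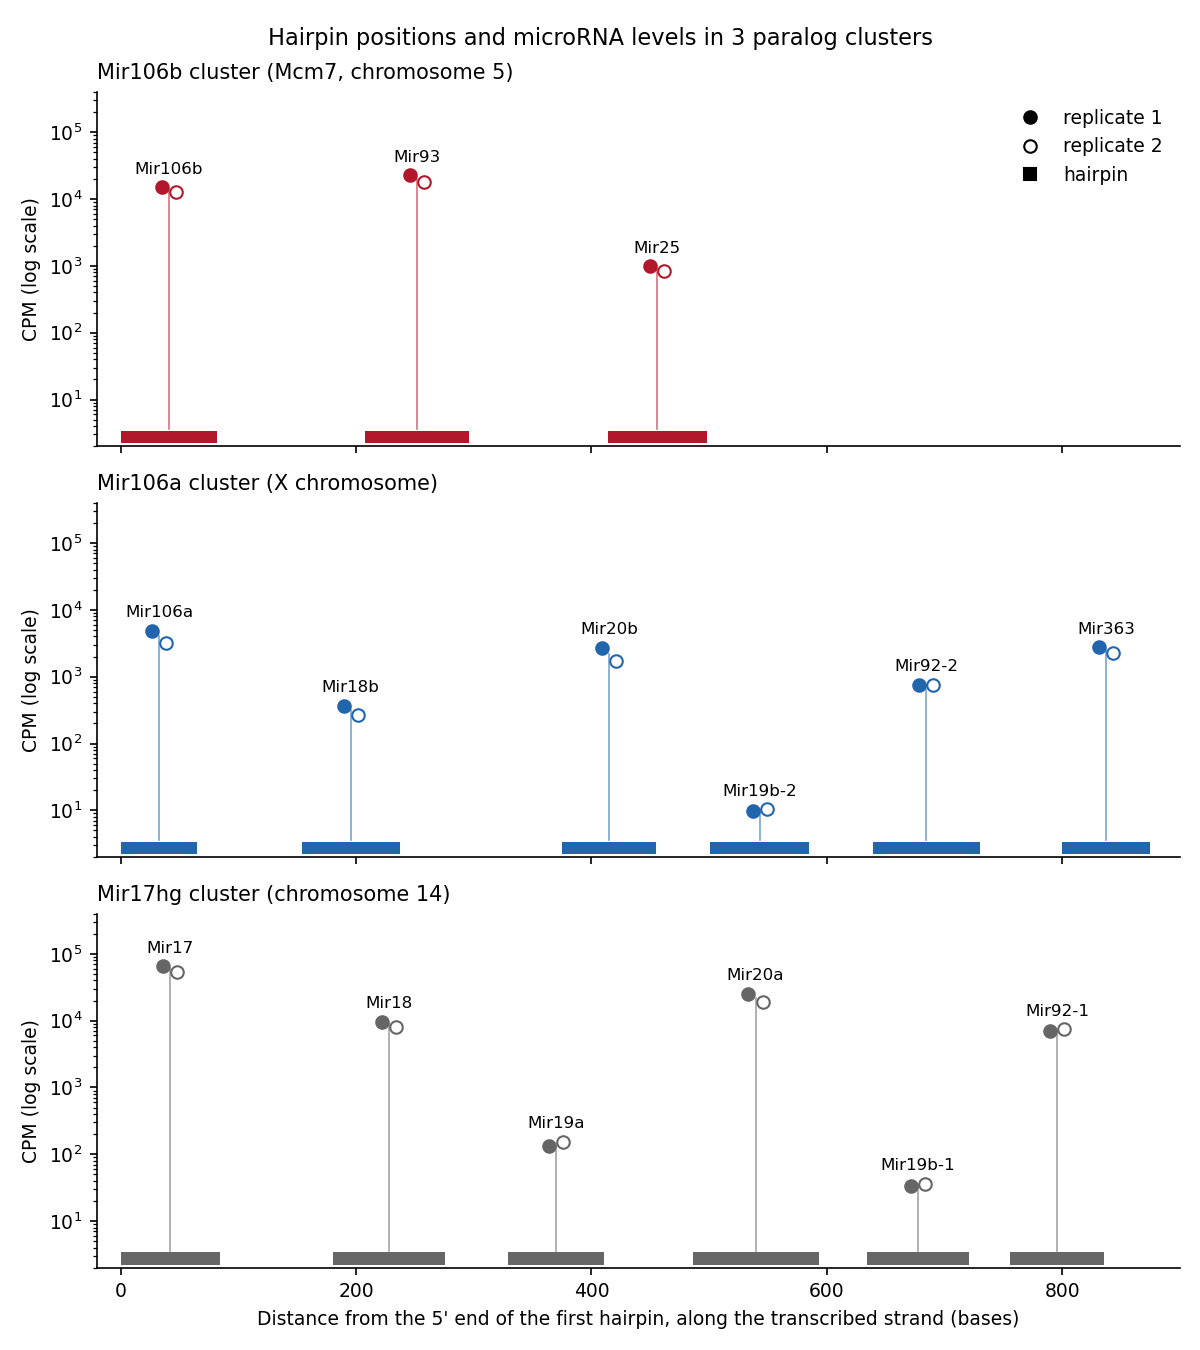
Hairpins of the Mir106b, Mir106a and Mir17hg clusters, drawn to scale as boxes along the transcribed strand (horizontal axis, bases from the 5′ end of the first hairpin), with the CPM of each gene in replicate 1 (filled) and replicate 2 (open) on a log axis. Mir93 is the highest point of the Mir106b cluster, at 22682 and 17798 CPM, and Mir19b-2 the lowest of the Mir106a cluster, at 9.72 and 10.3 CPM.

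Mir93 and Mir106b, both with the miR-17 seed, made up nearly all of the Mir106b cluster. Mir93 had 105004 counts (22682 CPM) in replicate 1 and 49931 counts (17798 CPM) in replicate 2, and ranked 12 among all genes by mean CPM. Mir106b had 69130 counts (14933 CPM) in replicate 1 and 35493 counts (12651 CPM) in replicate 2, and ranked 17. Mir93 exceeded Mir106b in both libraries, by 1.52 times in replicate 1 and 1.41 times in replicate 2.

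Mir25 was far lower, although its hairpin starts only 118 bases downstream of Mir93. It had 4541 counts (981 CPM) in replicate 1 and 2345 counts (836 CPM) in replicate 2, and ranked 100. Of the cluster's counts it held 2.54% in replicate 1, with a 95% Wilson interval of 2.47 to 2.62%, against 2.67% in replicate 2, with an interval of 2.57 to 2.78%. Mir93 stood at 23.1 times Mir25 in replicate 1 and 21.3 times in replicate 2, a gap that exceeds the spread between the libraries. No mature arm of Mir25 came within 2 mismatches of another listed hairpin, but the whole genome was not searched. The cause of its lower level was not tested.

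Among assigned reads, Mir106a led the X-linked cluster, followed by Mir363 and Mir20b. Mir106a had 22562 counts (4874 CPM) in replicate 1 and 8923 counts (3181 CPM) in replicate 2, ranked 54. Mir363, which has the seed of miR-25 and no counterpart in the Mir17hg cluster, had 12672 counts (2737 CPM) in replicate 1 and 6392 counts (2278 CPM) in replicate 2, ranked 66. Mir20b, with the miR-17 seed, had 12545 counts (2710 CPM) in replicate 1 and 4805 counts (1713 CPM) in replicate 2, ranked 71. The values of Mir363 and Mir20b overlapped between libraries, so their order is not resolved. Mir363 was the most distal hairpin of the cluster. Its counts were 3.64 times those assigned to its neighbour Mir92-2 in replicate 1 and 3.07 times in replicate 2. These ratios leave out the reads that Mir92-2 shares with Mir92-1, so the order of Mir363 and Mir92-2 is not established.

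The other 3 genes of the X-linked cluster were lower in assigned reads. Mir92-2 had 3479 counts (752 CPM) in replicate 1 and 2082 counts (742 CPM) in replicate 2. Mir18b had 1679 counts (363 CPM) in replicate 1 and 748 counts (267 CPM) in replicate 2. Mir19b-2 had 45 counts (9.72 CPM, 95% Wilson interval 7.27 to 13.01 CPM) in replicate 1 and 29 counts (10.3 CPM, 7.20 to 14.8 CPM) in replicate 2. From Mir106a to Mir19b-2 the mean CPM differed 402-fold within the cluster, against 22.3-fold from Mir93 to Mir25 within the Mir106b cluster. The value for Mir19b-2 leaves out reads that also align to Mir19b-1, and that for Mir92-2 leaves out reads that also align to Mir92-1. Over all 9 members the order by mean CPM was Mir93, Mir106b, Mir106a, Mir363, Mir20b, Mir25, Mir92-2, Mir18b and Mir19b-2. Of the 8 neighbouring pairs in that order, 1 had overlapping values, Mir363 and Mir20b. The order holds for assigned reads only, and the places of Mir92-2 and Mir19b-2 are not established, because their shared reads were not counted.

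Genes next to the leading members in rank gave a sense of scale. Around Mir93 stood Mir26b and Mir20a above, and Mirlet7g and Mir30a below. The 2 values of Mir93 overlapped those of Mir26b, Mir20a and Mirlet7g but not those of Mir30a, which had 14760 and 14581 CPM. Around Mir106a stood Mir22, Mir361, Mir301 and Mir181a-1, all with overlapping values.

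Gene by gene, the 2 clusters were then set side by side within each seed. Mir106b and Mir93 together had 4.96 times the counts of Mir106a and Mir20b in replicate 1 and 6.22 times in replicate 2. Singly, Mir106b had 3.06 and 3.98 times the counts of Mir106a, and Mir93 had 8.37 and 10.4 times those of Mir20b, in replicates 1 and 2. With the miR-25 seed the order was turned round. Mir25 had 0.281 and 0.277 times the counts of Mir92-2 and Mir363 together. Against Mir92-2 alone, without the reads it shares with Mir92-1, Mir25 had 1.31 times the counts in replicate 1 and 1.13 times in replicate 2, and against Mir363 it stood at 0.358 and 0.367 times. The higher sum of the Mir106b cluster thus came from its 2 genes with the miR-17 seed, which held 97.5% and 97.3% of its counts.

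**Figure D2:**
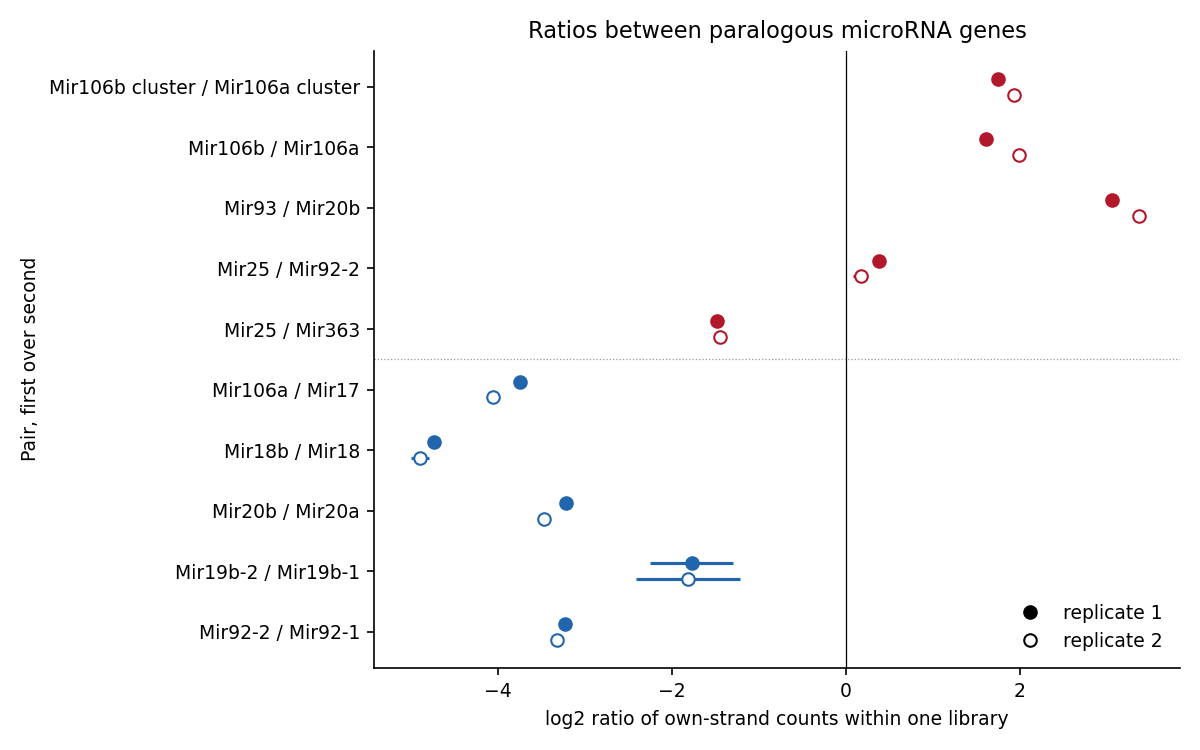
Log2 ratio of own-strand counts (horizontal axis) for paralogous pairs, in replicate 1 (filled) and replicate 2 (open), with 95% counting intervals as bars where wider than the point. The upper 5 rows set the Mir106b cluster over the Mir106a cluster and the lower 5 the Mir106a cluster over the Mir17hg cluster. Mir106b / Mir106a and Mir93 / Mir20b lie right of 0, Mir25 / Mir363 lies left of it, and all 5 X-linked genes lie left of 0.

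In assigned reads, both clusters were lower than the Mir17hg cluster, which is known to promote cell proliferation in embryos and tumours. Its 6 genes summed to 107366 CPM in replicate 1 and 87654 CPM in replicate 2. The Mir106b cluster had 35.9% and 35.7% of that sum, and the Mir106a cluster 10.7% and 9.34%. By counterpart, Mir106a had 7.47% and 5.98% of the counts of Mir17, Mir18b had 3.74% and 3.36% of those of Mir18, and Mir20b had 10.8% and 9.02% of those of Mir20a. Mir92-2 had 10.7% and 10.03% of the counts of Mir92-1, and Mir19b-2 had 29.2% and 28.4% of those of Mir19b-1, in both cases without the reads that align to both copies. Each of the 5 X-linked genes with a counterpart was thus lower than it in both libraries, in assigned reads. In the Mir17hg cluster, too, the Mir19 genes were the lowest in assigned reads, at 143 ± 15.8 CPM for Mir19a and 34.8 ± 2.19 CPM for Mir19b-1 (SD, n = 2). Among the listed hairpins, the nearest to miR-19a-3p had 1 mismatch. The part of reads that align to several places in these low levels was not tested.

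Summed by seed, the miR-17 group of 7 genes reached 135660.2 CPM in replicate 1 and 107469 CPM in replicate 2. The Mir106b cluster gave 27.7% and 28.3% of it, the Mir106a cluster 5.59% and 4.55%, and the Mir17hg cluster 66.7% and 67.1%. Mir6383, an X-linked gene outside the clusters whose listed mature sequence has the same seed, had no counts. For the miR-18 seed the Mir106a cluster gave 3.61% and 3.25% through Mir18b, and for the miR-19 seed 5.56% and 5.14% through Mir19b-2, the last without reads shared with Mir19b-1.

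For the miR-25 and miR-92 seed, shares could be taken only of reads assigned to a single gene. Reads of miR-92a-3p that align to both Mir92-1 and Mir92-2 belong to the clusters but are not counted, so the order of the sources is not established. This overstates the shares of Mir92b and Mir25 if those genes lost no reads in the same way. Mir92b was not among the genes compared with other hairpins. The assigned reads of the 7 genes summed to 31309 CPM in replicate 1 and 39449 CPM in replicate 2. Mir92b alone, with 19483 and 27886 CPM, held 62.2% and 70.7% of the family's assigned reads. Of these assigned reads, the Mir106b cluster had 3.13% and 2.12% through Mir25, and the Mir106a cluster 11.1% and 7.66% through Mir363 and Mir92-2. Mir32 stood at 303 and 310 CPM, close to Mir18b and below Mir25, and Mir367 had 8 and 2 counts.

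**Figure D3:**
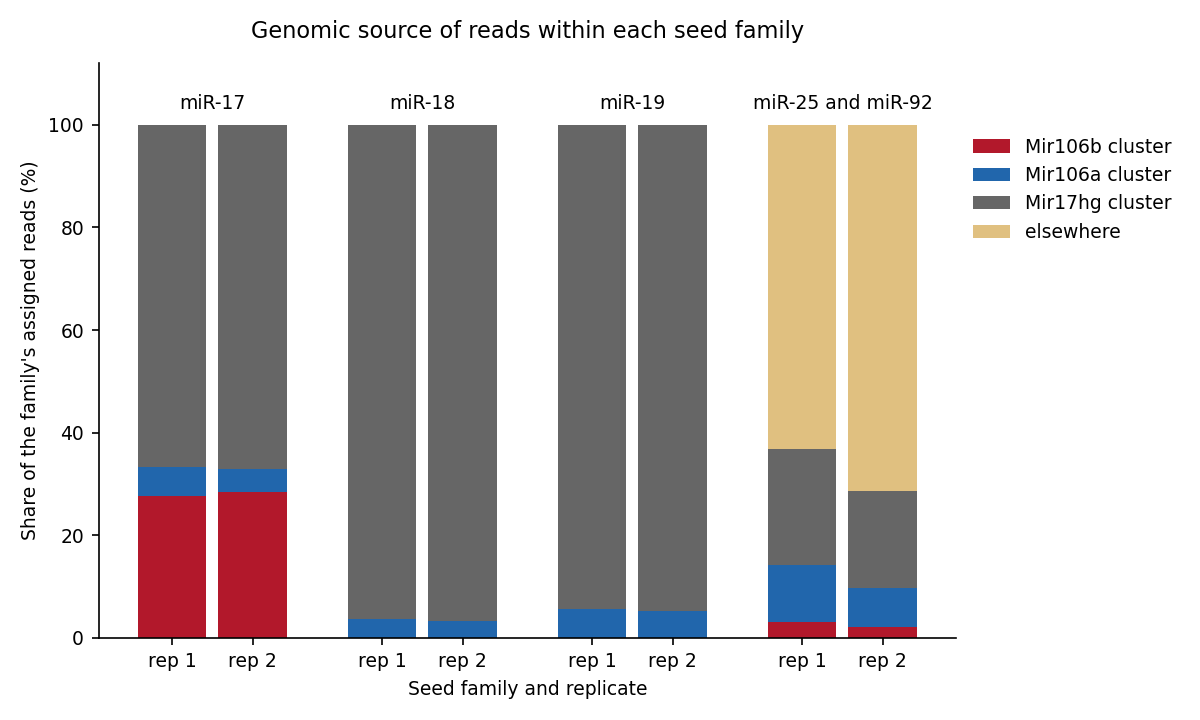
Share of assigned reads (vertical axis, percent) that came from the Mir106b cluster, the Mir106a cluster, the Mir17hg cluster and genes elsewhere, for each seed family in replicate 1 and replicate 2. The Mir106b cluster gives 27.7% and 28.3% of the miR-17 family. The bars of the miR-25 and miR-92 family leave out miR-92a-3p reads that align to both Mir92-1 and Mir92-2, which may overstate the part of genes elsewhere by an unknown amount. The bars of the miR-19 family leave out reads that align to both Mir19b-1 and Mir19b-2, and rest on 810 counts in replicate 1 and 564 in replicate 2.

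Most members were higher in replicate 1 than in replicate 2, and within the X-linked cluster the genes with the miR-17 seed differed most. By Fisher's exact test of the counts with Benjamini-Hochberg adjustment over 380 genes, 7 of the 9 members were called higher in replicate 1, 0 were called lower and 2 were not called. Over all quantified genes, 54.2% were called in either direction, 27.1% higher in replicate 1 and 27.1% lower. The median log2 ratio of replicate 1 over replicate 2 was 0.26 for the members and -0.04 for all quantified genes. Fisher's test sets these 2 libraries against counting noise and compares no conditions. The edgeR test given next takes its spread from the same differences that it tests. Few calls are therefore built into it, and it cannot show that genes are alike. With a spread between replicates estimated from the same 2 libraries (edgeR's exact test with Benjamini-Hochberg adjustment, biological coefficient of variation 20.4%), 4 of the 380 genes were called and none of the 9 members was, each with an adjusted p of 1.

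Mir20b had a log2 ratio of 0.66 ± 0.02 (counting SE; adjusted p = 2.64e-170 by Fisher's exact test) and Mir106a of 0.62 ± 0.02 (adjusted p = 2.50e-269 by the same test). These were the only members that differed by at least 1.5-fold, as 13.9% of all quantified genes did with a call. Mir18b followed at 0.44 ± 0.06 (adjusted p = 4.27e-12 by Fisher's exact test) and Mir363 at 0.26 ± 0.02 (adjusted p = 6.88e-33 by the same test). Mir92-2, at 0.02 ± 0.04, and Mir19b-2, at -0.09 ± 0.34, were the members that were not called. Both ratios leave out the reads these genes share with Mir92-1 and Mir19b-1, and may not hold for all their reads. Those counterparts, which lack the same reads, had log2 ratios of -0.07 and -0.13.

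In the Mir106b cluster the 3 genes lay closer together. Mir93 had a log2 ratio of 0.35 ± 0.01, Mir106b of 0.24 ± 0.01 and Mir25 of 0.23 ± 0.04 (counting SE), all called higher in replicate 1. Adjusted p by Fisher's exact test was 1.99e-145 for Mir106b and 7.86e-10 for Mir25, and for Mir93 too small for the program to represent. The difference in log2 ratio between Mir106b and Mir25 was 0.01 (95% interval from counting error -0.07 to 0.08), and that between Mir93 and Mir106b was 0.11 (0.09 to 0.13). In the X-linked cluster, Mir106a and Mir20b differed by -0.05 (-0.11 to 0.01), while Mir106a exceeded Mir363 by 0.35 (0.30 to 0.41). In assigned reads, the genes of a cluster did not all move by the same amount between the libraries.

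The ratio of the 2 clusters in assigned reads therefore differed between the libraries. On the log2 scale, the Mir106b cluster over the Mir106a cluster was 1.75 in replicate 1 and 1.93 in replicate 2, a difference of -0.18 (95% interval from counting error -0.20 to -0.15). Against the Mir17hg cluster, the Mir106b cluster kept nearly the same ratio, -1.48 in replicate 1 and -1.49 in replicate 2, a difference of 0.01 (-0.0032 to 0.02). The Mir106a cluster over the Mir17hg cluster was -3.23 in replicate 1 and -3.42 in replicate 2, a difference of 0.19 (0.17 to 0.21). These intervals hold counting error only, and not the spread between further pools. The Mir106a and Mir17hg sums leave out the reads shared by the Mir92 and Mir19b copies, so the differences hold for assigned reads only.

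**Figure D4:**
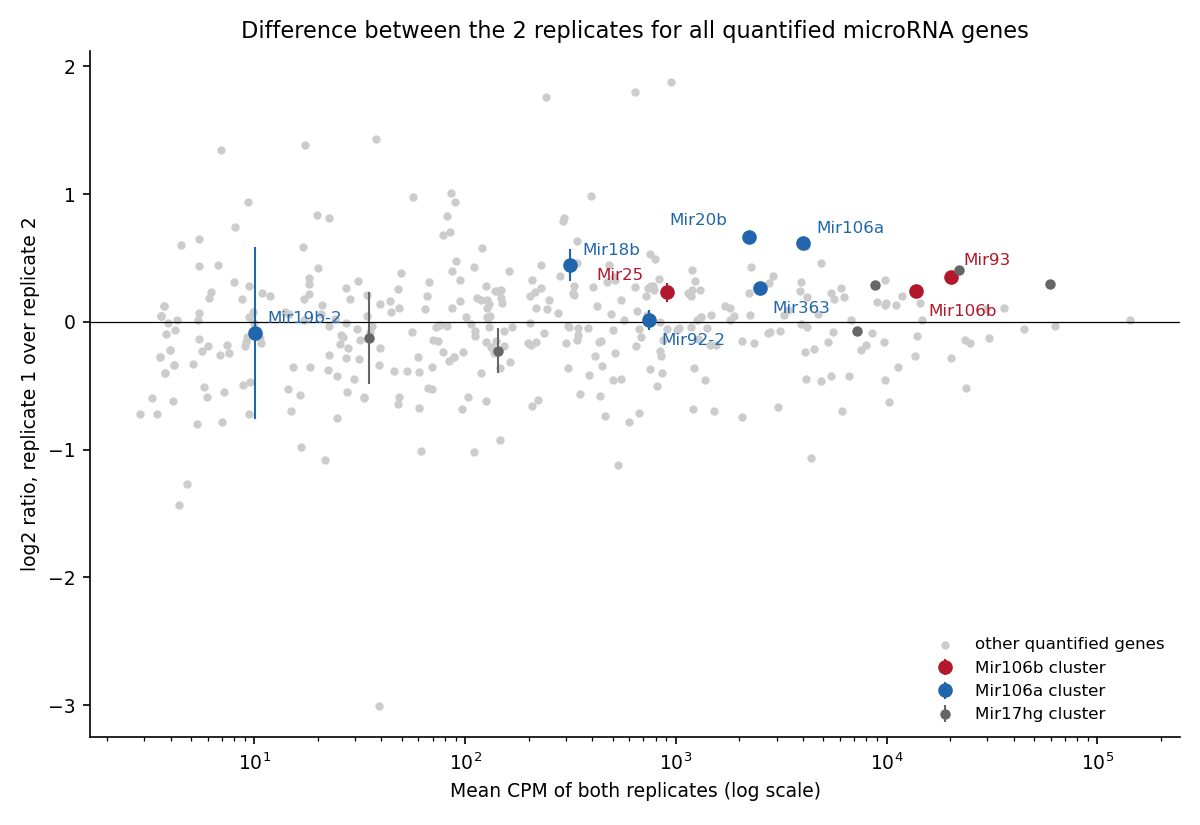
Log2 ratio of replicate 1 over replicate 2 (vertical axis) against mean CPM (horizontal axis, log scale) for the 380 quantified genes, with the Mir106b cluster in red, the Mir106a cluster in blue and the Mir17hg cluster in dark grey, and 95% counting intervals as bars. Mir20b (0.66) and Mir106a (0.62) stand above the other members, which lie between -0.09 and 0.44. The points of Mir92-2, Mir19b-2, Mir92-1 and Mir19b-1 leave out reads shared between copies.

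Marker lists also differed between the libraries. Calls here are by Fisher's exact test, against counting noise only, which called 27.1% of all quantified genes higher in replicate 1 and 27.1% lower. Of 11 let-7 genes listed, known to rise as progenitors differentiate, 10 were found by symbol, and these 10 were called lower in replicate 1, with sums of 31773 CPM in replicate 1 and 40183 CPM in replicate 2. All 5 mesenchymal genes were called lower, with sums of 7291 and 12093 CPM, while the neural sum differed by -0.02 on the log2 scale, with 6 of 13 quantified genes called higher, 3 lower and 4 not called. Endothelial Mir126a had 23434 and 26243 CPM, and the 3 leukocyte genes, of which 1 was called higher and 2 lower, summed to 566 and 686 CPM. The 3 erythroid genes summed to 413 and 271 CPM, with 1 called higher, 1 lower and 1 not called. Mir451a had a log2 ratio of 0.81, against -0.20 for Mir144 and -1.08 for Mir486, so the higher erythroid sum came from Mir451a. No gene found from these lists was at 0 in either library. Reads that aligned to several places are missing from these values too. The part of any of these lists in the members' differences was not tested.

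Among 93 other genes with a mean of at least 1000 CPM, those closest to the Mir106b cluster sum in their log2 ratio between the libraries (0.30) were Mir708 (0.30), Mir17 (0.30) and Mir301 (0.31). Closest to the Mir106a cluster sum (0.48) were Mir541 (0.46), Mir425 (0.43) and Mir20a (0.41). A likeness over 2 libraries is 1 number per gene and can be shared by many genes.

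The promoters of the host genes are shown because hairpins of a cluster are known to share a transcript. Mcm7 is a known target of the E2F factors, which activate genes at entry into S phase. Windows of 250 bases before to 50 bases after each start site in the RefSeq table were searched on both strands for the E2F core, spelled TTTCGCGC, TTTGGCGC, TTTCCCGC or TTTGCCGC. At least 1 match was present in 2.26% of 32851 windows. For Mcm7 the window chr5:138171834-138172133 (GRCm38.p6, minus strand) had 2 matches, in capitals, the upstream one on the opposite strand:
Mcm7: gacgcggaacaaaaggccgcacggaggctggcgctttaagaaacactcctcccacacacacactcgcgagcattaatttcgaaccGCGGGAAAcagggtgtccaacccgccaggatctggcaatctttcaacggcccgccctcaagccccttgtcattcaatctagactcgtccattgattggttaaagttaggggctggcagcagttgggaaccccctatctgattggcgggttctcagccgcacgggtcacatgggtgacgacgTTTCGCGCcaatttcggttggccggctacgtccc

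The window of a second listed Mcm7 start site held no match, and neither did that of Kis2, chrX:52744544-52744843 (GRCm38.p6, minus strand), whose annotated transcript reaches into Mir106a. A match describes letters in a window and is no measure of binding.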

How the data were processed

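MicroRNA reads from 2 libraries of mouse embryonic midbrain were analysed. The files the authors deposited hold whole-number counts of reads for each microRNA gene, not normalized. The authors counted alignments to mm10 using annotation M4, per the read-me files. The sources used here do not give the aligner or the counter. The columns have no header; from their values, they were taken to hold reads of either strand, the gene's own strand and the opposite strand. Own-strand counts were used, which were 97.6% and 97.5% of the either-strand reads. Rows that name no gene (56.9% and 58.2% of reads; 33.4% in each library aligned to several places) stayed out of totals and tests.

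Symbols and positions came from GENCODE M21 on GRCm38, the assembly of mm10; 1894 of 1973 identifiers were found. CPM is own-strand count per 1000000 assigned own-strand counts. Genes with at least 10 counts in both libraries were compared by a two-sided Fisher's exact test with Benjamini-Hochberg adjustment at 0.05 (scipy 1.17.1). The code was tried on simulated counts with counting noise alone, which leave out any spread between pools. An SE or interval on counts covers counting error only, since PCR copies are not independent molecules. Hairpins were compared without gaps on both strands. Alternatives used edgeR 4.0.16 (TMM factors, exact test with a common dispersion) and DESeq2 1.42.0 size factors. Named genes are the members, the Mir17hg genes, genes sharing a member's seed, the 2 genes above and below each cluster's leading member in rank, and the 3 genes of at least 1000 CPM closest in replicate ratio. The members and lists were chosen with earlier results of these data known.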

Additional observations from a re-analysis of the deposited data

How the results depend on the processing

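With all reads of a library as the total, reads assigned to no gene included, the mean level was 14848 CPM for the Mir106b cluster and 4176 CPM for the Mir106a cluster. Without Mir99a, the most abundant gene, in the total, the Mir106b cluster stood at 40777 CPM. With either-strand reads both sums moved by less than 1 SD. Leaving out Mir92-2 and Mir19b-2 gave 9061 CPM for the Mir106a cluster, which does not measure the reads those genes share, since these were never counted. The log2 ratio of the clusters lay between 1.75 and 1.93 when either replicate was left out, and was 1.96 without Mir92-2 and Mir19b-2 and 1.87 with counts divided by the mature length, an alternative chosen after seeing the data. Of 206 genes called between the replicates, the edgeR exact test with a dispersion from the same libraries left 4, and 217 had an unadjusted p under 0.05 by Fisher's exact test. TMM factors, DESeq2 size factors and either-strand reads gave 201 to 214 calls, 52.9% to 54.7% of the genes tested, against 54.2% in the main setting. With all 746 genes of at least 1 count in either library, 199 were called, a share of 26.7%. In each of these settings except the edgeR exact test, which called no member, the same 7 members were called higher in replicate 1. Called genes higher in replicate 1 made up 50% with library totals and 55.7% with DESeq2 size factors. The 2 libraries form 1 group, so no paired comparison of conditions was possible. Ratios between clusters and genes were taken within each library. Mir19b-2 rests on 45 and 29 counts, so its values carry the widest counting error of the members.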
